A study of Mus musculus with 10 samples.

Results

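Brain cells of wild-type C57BL/6 mice that the labels call CD11c- microglia were compared between postnatal day 5 (P5) and 9 months of age. At 9 months genes of mature neutrophils took a larger share of their counts than homeostatic microglial genes did, so they are called CD11c- cells here. The comparison uses every library labelled WT-CD11c-, which is 3 libraries at P5 and 2 at 9 months, or 5 of the 10 libraries in the series. The other 5 libraries hold cells labelled as CD11c+ microglia of the same strain and ages, again 3 at P5 and 2 at 9 months, and serve here only to show where the CD11c- cells differ. CD11c, the product of Itgax, is an integrin chain that marks a small set of microglia in the young and the old brain. Cells were sorted by flow cytometry and total RNA was sequenced. The labels do not say how many mice went into a library, whether the numbered replicates are separate mice, or which other surface markers set the gate. The p-values below therefore measure the spread between these libraries, which may be technical. The labels assign a low-input kit with full-length cDNA synthesis and amplification to the 9-month libraries and describe the rest only as standard Illumina libraries, so age and library kit cannot be told apart in any value that follows.

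Microglia are the resident macrophages of the brain. They descend from yolk sac progenitors, multiply in the newborn brain, clear dying cells and surplus synapses, and feed growth factors to developing axons. In the adult they turn over slowly and keep a surveying state that depends on signals through the CSF1 receptor and TGF-beta, with Sall1 among the transcription factors that define it. Granulocytes, the neutrophils and eosinophils of the blood and marrow, are other myeloid cells that share surface markers with microglia.

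The P5 libraries held 11892082 to 14841417 gene counts and the 9-month libraries 22122354 to 24140297. Log-scaled profiles correlated at 0.970 to 0.988 among the P5 libraries and at 0.982 between the 9-month libraries. The CD11c+ P5 replicate 2 stood apart from all other libraries, and the CD11c+ values given below leave it out unless stated. Itgax checks the sort. Its level in CPM, the counts relative to a library's total after scaling by the trimmed mean of M-values, was 27.2, 60.3 and 30.7 in the P5 CD11c- libraries against 206 and 122 in the CD11c+ ones. At 9 months it was 6.52 and 4.54 in CD11c- against 29.1 and 21.8 in CD11c+. Itgax was thus lower in the CD11c- libraries at each age. Within them it fell by 2.80 on the log2 scale from P5 to 9 months (standard error 0.42, adjusted p = 0.000923). It was lower at 9 months in the CD11c+ libraries too, and their 9-month levels overlapped the P5 CD11c- levels. The labels therefore do not stand for 1 Itgax level across ages.

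Microglial RNA was present at both ages, and granulocyte RNA was abundant at 9 months. The list of 36 homeostatic microglial genes took 4.16%, 2.80% and 2.47% of the counts of the P5 libraries and 3.54% and 3.34% of those of the 9-month libraries, so the groups overlapped. The 26 genes of mature neutrophils took 0.152%, 0.536% and 0.319% at P5 and 15.4% and 20.7% at 9 months. S100a8, an antimicrobial calcium-binding protein of neutrophils, stood at 115, 621 and 376 CPM at P5 and at 29900 and 67900 CPM at 9 months. The granule proteins Ltf and Ngp reached 20300 and 24100 CPM and 35700 and 59700 CPM at 9 months. In the 9-month CD11c+ libraries the same neutrophil list took 0.348% and 0.242%. No defining neutrophil marker was at 0 in a P5 CD11c- library. Lists of T and NK cells, vessels, astrocytes and oligodendrocytes each took between 0.00429% and 0.0514% of every CD11c- library.

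**Figure D1:**
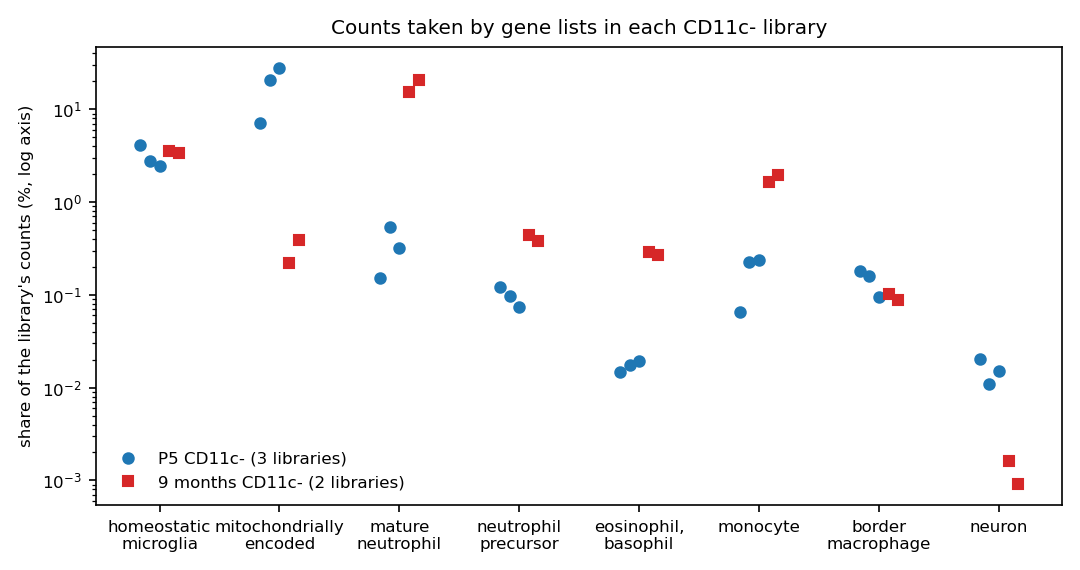
Share of each CD11c- library's counts (percent, log axis) taken by 8 gene lists, one symbol per library, circles for the 3 P5 libraries and squares for the 2 nine-month libraries. Mature neutrophil genes take 0.152%, 0.536% and 0.319% at P5 and 15.4% and 20.7% at 9 months, and mitochondrially encoded genes take 7.15%, 20.6% and 28.0% at P5 and 0.223% and 0.387% at 9 months.

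RNA of immature granulocytes and of eosinophils came with it. Elane and Mpo, proteases and peroxidase made by neutrophil precursors in the marrow, were at 1.22, 18.2 and 1.85 CPM and at 4.15, 54.3 and 7.48 CPM at P5. At 9 months Elane stood at 774 and 833 CPM and Mpo at 1430 and 1390 CPM. Prg2, the major basic protein of eosinophils, had 0.664, 2.37 and 0.792 CPM at P5 and 1078 and 1280 CPM at 9 months, a rise of 9.88 on the log2 scale. The eosinophil peroxidase Epx had 0.166, 0.287 and 0 CPM at P5 and 118 and 89.9 CPM at 9 months. Of the 13 tested genes of neutrophil precursors 11 rose and 1 fell, of the 26 mature neutrophil genes 21 rose and 4 fell, and of the 22 eosinophil and basophil genes 17 rose and 1 fell. Their median log2 fold changes were 5.64, 5.67 and 3.29. Among all 16281 genes tested, 53.2% were called, 26.4% as higher and 26.7% as lower, and the median was -0.08.

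Single genes gave the same picture. The protease Ctsg had 1.27, 3.44 and 1.76 CPM at P5 and 109 and 119 CPM at 9 months. Serpinb1a, an inhibitor of neutrophil proteases, went from 3.98, 16.5 and 5.99 CPM to 883 and 1116 CPM. The collagenase Mmp8 went from 16, 60.9 and 59.2 CPM to 3864 and 5041 CPM. Ly6g, the surface antigen by which mouse neutrophils are sorted, had 1.49, 9.04 and 5.46 CPM at P5 and 595 and 927 CPM at 9 months. In each of these genes both 9-month libraries lay above all P5 libraries, and P5 replicate 1 was the lowest of the 3. The chitinase-like Chil3, the gene with the largest counts among those that rose most, had 9.40, 66.4 and 22.2 CPM at P5 and 9578 and 14940 CPM at 9 months. Chil4 and Prg3 had 1 count each in the P5 libraries together, against 2422 and 1927 counts at 9 months, which gives a 2110-fold ratio for Chil4 (95% exact interval 378 to 83400, counting error only) and a 1680-fold ratio for Prg3 (301 to 66300). Ear6 and Ear1, eosinophil-associated ribonucleases that belong to a family of near-identical copies and may share reads, rose by 10.18 and 10.15.

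Monocyte genes were less uniform. Of 24 tested, 12 rose and 4 fell (7 without P5 replicate 1, 2 without any 1 of the other 4 libraries), with a median of 0.97, and 11 had a more positive age difference in CD11c- than in CD11c+ cells (7 without CD11c+ P5 replicate 3 or 9-month replicate 1, 5 without CD11c+ 9-month replicate 2). Ly6c1 went from 0.277, 0.287 and 0.264 CPM to 63.3 and 59.6 CPM (log2 fold change 7.78, standard error 0.26, adjusted p = 2.05e-05), the smallest p of the table, and Cd177, a surface glycoprotein of neutrophils, from 8.13, 46.9 and 23.7 CPM to 2386 and 2761 CPM. The monocyte marker Ly6c2 had 14.8, 70.4 and 39.9 CPM at P5 and 1750 and 2650 CPM at 9 months. Whether Ly6c1 and Ly6c2 shared reads was not tested. Ccr2, the chemokine receptor of inflammatory monocytes, had 55.1, 108 and 140 CPM at P5 and 187 and 239 CPM at 9 months. Border-associated macrophages live in the meninges and around vessels, and of their 26 tested genes 12 rose and 4 fell. The mannose receptor Mrc1 fell from 303, 299 and 198 CPM to 56.1 and 37.2 CPM, and Ms4a7 rose from 2.54, 5.67 and 3.87 CPM to 19.5 and 25.9 CPM. Coagulation factor gene F13a1, which monocytes share with these macrophages, rose from 16.8, 46.9 and 49.7 CPM to 412 and 481 CPM, and Ms4a6c from 10.7, 30.5 and 29.7 CPM to 214 and 227 CPM. Igkc, the immunoglobulin kappa constant region, rose from 5.97, 4.30 and 3.70 CPM to 118 and 153 CPM, while the B-lineage factor Pax5 had 169 counts at P5 and 0 at 9 months, at least 64.7-fold lower when 3 counts are set in place of the 0. In bulk RNA, a change in the number of cells of a type and a change in RNA per cell cannot be told apart, and the part these other cells play in the results below was not tested.

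Over all genes, 4305 of 16281 were higher at 9 months and 4353 were lower at an adjusted p under 0.05. At least a 2-fold difference was seen in 3313 of the genes that rose and in 3678 of those that fell. Leaving the granulocyte and monocyte genes out before scaling gave 4236 and 4445. Scaling instead to the summed counts of the homeostatic microglial genes, which sets that sum equal in all libraries, moved the median of all genes from -0.08 to -0.69 and gave 2236 higher and 6464 lower, so that 25.7% rather than 49.7% of the calls were rises. The age difference also moved with the length of the gene. Its median was 0.60 in the 3257 shortest genes (up to 1653 bases of exon), where 38.3% rose and 18.5% fell, and -0.71 in the 3256 longest (6552 bases or more), where 13.2% rose and 42.7% fell. In CD11c+ cells the corresponding medians were 0.31 and -0.53. With offsets for GC content and length, an alternative chosen after seeing the data, 4677 genes were higher and 3691 lower.

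**Figure D2:**
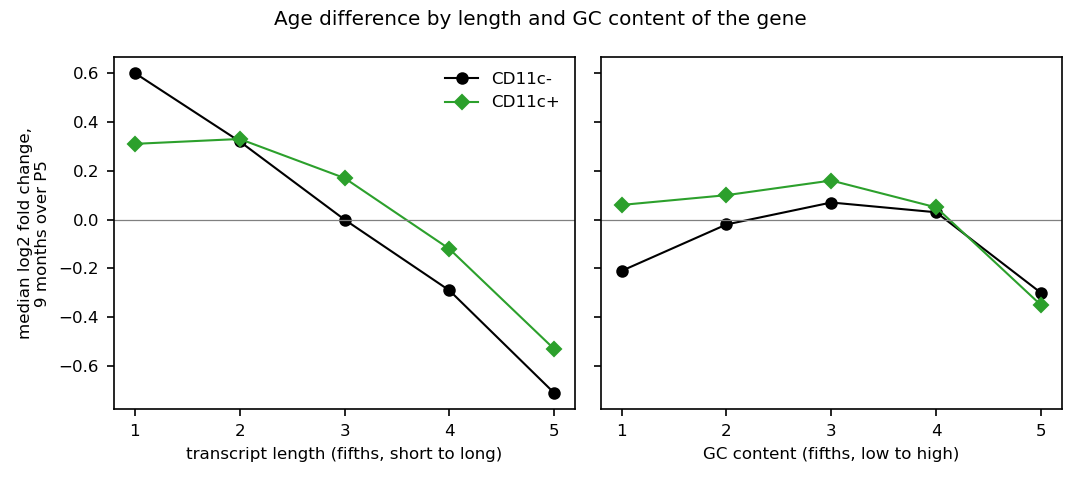
Median log2 fold change of 9 months over P5 in 5 equal bins of genes by exon length (left) and by GC content (right), circles for CD11c- and diamonds for CD11c+ cells. The median falls from 0.60 in the shortest to -0.71 in the longest bin in CD11c- cells and from 0.31 to -0.53 in CD11c+ cells, while the GC bins stay between -0.35 and 0.16.

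Homeostatic microglial genes did not move one way. Of the 36, all of which were tested, 9 rose, 11 fell and 16 did not pass, with a median of -0.17. Without P5 replicate 1 there were 14 rises, and without 9-month replicate 1 there were 7 falls. Tmem119, a membrane protein used to tell microglia from other macrophages, had 435, 243 and 290 CPM at P5 and 1121 and 897 CPM at 9 months, a rise of 1.68 on the log2 scale (standard error 0.29, adjusted p = 0.00206). Selplg, the ligand of selectins, went from 334, 253 and 328 CPM to 2764 and 3070 CPM, a rise of 3.28. P2ry12, the purinergic receptor that steers microglial processes, had 1778, 1130 and 1133 CPM at P5 and 1610 and 2051 CPM at 9 months, overlapping values (log2 difference 0.47, adjusted p = 0.221). The fractalkine receptor Cx3cr1 had 3035, 1631 and 3239 CPM and then 2339 and 2548 CPM, also overlapping (-0.08, adjusted p = 0.861). Csf1r, the receptor for CSF1 and IL-34, had 4322, 3524 and 2806 CPM at P5 and 2828 and 2993 CPM at 9 months (-0.26, adjusted p = 0.5). Trem2, the lipid-sensing receptor of microglia, had 920, 603 and 600 CPM at P5 and 539 and 505 CPM at 9 months (-0.41, adjusted p = 0.23).

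Other members of the homeostatic list fell. The transcription factor Sall1 went from 729, 403 and 362 CPM to 64.4 and 65.2 CPM, and Sall3, its relative, from 76.6, 78.3 and 68.2 CPM to 19.5 and 25.2 CPM. Crybb1, a crystallin that marks microglia of the late fetal and early postnatal brain, fell from 510, 410 and 416 CPM to 96.0 and 81.1 CPM (-2.30, adjusted p = 0.000186). Lag3, an MHC class II-binding receptor, fell from 178, 212 and 139 CPM to 18.9 and 21.6 CPM. In each of the 4 genes the groups did not overlap. With scaling to the homeostatic list itself the median of its members was -0.77, with 7 higher and 18 lower, which stands beside the shift of all genes to -0.69.

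**Figure D3:**
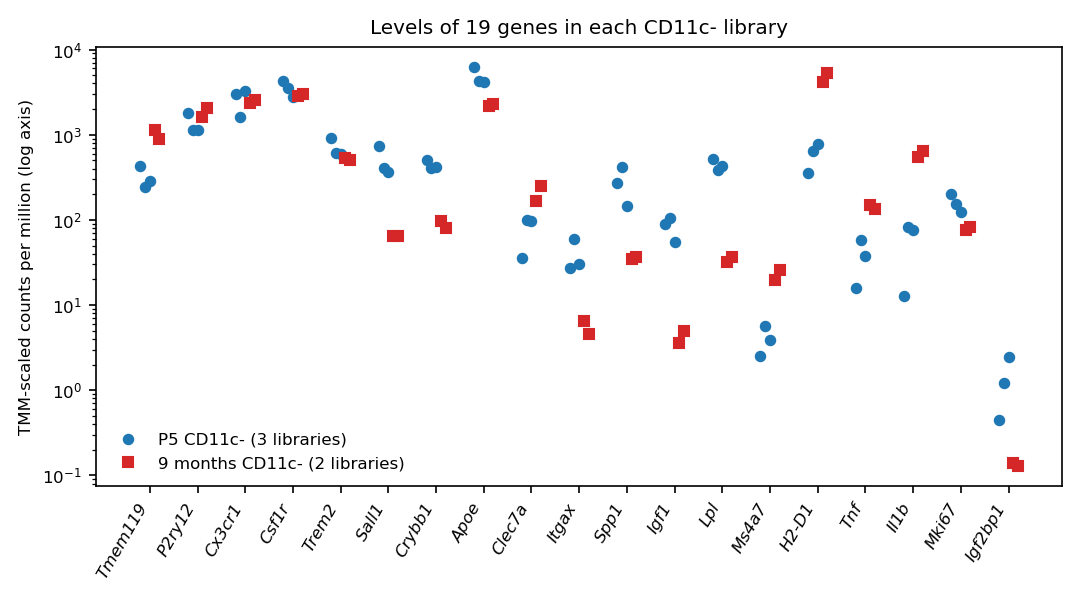
TMM-scaled CPM (log axis) of 19 genes in each CD11c- library, circles for the 3 P5 libraries and squares for the 2 nine-month libraries. Tmem119 and H2-D1 are higher and Sall1, Crybb1, Igf1 and Lpl lower at 9 months without overlap, and P2ry12, Cx3cr1 and Csf1r overlap between the ages.

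Age differences of the homeostatic genes were more negative than in CD11c+ cells. Between P5 and 9 months 26 of the 36 genes rose in the CD11c+ cells, where 31.9% of 15846 genes rose, and their median was 1.67. The interaction of age and subset, fitted over 9 libraries, was more negative in CD11c- cells for 29 of 36 and more positive for none at an adjusted p under 0.05, with 8.76% of 18348 genes more negative and 10.3% more positive. At P5 Tmem119 stood at 78.5 and 134 CPM in CD11c+ against 435, 243 and 290 CPM in CD11c-. By 9 months the order had turned, with 4376 and 3536 CPM in CD11c+ against 1121 and 897 CPM in CD11c- (interaction -3.57 on the log2 scale, adjusted p = 0.000923). The whole list took 10.3% and 9.70% of the 9-month CD11c+ counts, against 3.54% and 3.34% in CD11c-. With scaling to the homeostatic list, 6 of the 36 genes were more negative and 3 more positive, and with CD11c+ P5 replicate 2 included 4 were more negative. The neutrophil shares given above move with this contrast, and their part in it was not tested.

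Transcription factors of the microglial lineage mostly fell. Of 30 tested, 17 fell and 2 rose, with a median of -1.01. Lyl1 and Tal1, basic helix-loop-helix factors of early blood and macrophage progenitors, fell from 220, 154 and 190 CPM to 20.1 and 24.5 CPM and from 87.1, 50.1 and 49.4 CPM to 3.21 and 3.83 CPM. Elk3, an ETS-domain factor, fell from 162, 152 and 141 CPM to 21.7 and 28.7 CPM, and the retinoid X receptor gene Rxra from 64.5, 64.8 and 51.7 CPM to 9.96 and 7.67 CPM. The 9-month libraries lay below all P5 libraries in these 4 genes. In CD11c+ cells Lyl1 went from 298 and 274 CPM to 20.4 and 23.6 CPM, and its interaction did not pass (adjusted p = 0.15). Elk3 fell less in CD11c+ cells, from 143 and 140 CPM to 84.4 and 63.3 CPM (interaction -1.65, adjusted p = 0.00324). With the offsets for GC content and length 13 of the 30 factors fell and 4 rose. Their median length was 5502 bases, against 3553 bases for all genes tested.

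In the lists of the TGF-beta pathway, growth factors and matrix or guidance molecules falls also outnumbered rises. Among 21 TGF-beta pathway genes 8 fell and 1 rose, with a median of -0.79, and with GC and length offsets 7 fell and 3 rose, with a median of -0.34. Tgfb1, the ligand itself, fell from 187, 236 and 214 CPM to 17.1 and 20.4 CPM (-3.48, standard error 0.23, adjusted p = 5.72e-05). Its inhibitor Smad7 fell from 54.9, 55.2 and 52.5 CPM to 7.17 and 10.4 CPM, the repressor Ski from 210, 206 and 150 CPM to 42.7 and 39.2 CPM, and the type I receptor Acvrl1 rose from 20.5, 21.4 and 18.0 CPM to 85.0 and 90.7 CPM. Of 25 growth factor genes tested 10 fell and 3 rose, and their median went from -0.95 to -0.40 with those offsets. Vegfb fell from 38, 29.5 and 26.0 CPM to 2.79 and 3.19 CPM, and Gas6, the ligand of the phagocytic receptors Axl and Mertk, from 685, 514 and 448 CPM to 98.9 and 80.6 CPM. Of 30 matrix and guidance genes 16 fell and 2 rose, with a median of -1.54 (10 falls without 9-month replicate 1). The integrin chain Itgb5 fell from 669, 544 and 463 CPM to 59.7 and 67.1 CPM, Sema4c from 140, 71.5 and 75.8 CPM to 5.12 and 5.43 CPM, and its receptor family member Plxnb2 from 805, 671 and 525 CPM to 96.8 and 97.9 CPM. With GC and length offsets 9 of the 30 matrix and guidance genes fell, at a median of -0.79. Their median length was 7130 bases.

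Genes of microglia around growing axon tracts, which overlap those of disease-associated microglia, moved in both directions. Over all genes tested 26.4% rose and 26.7% fell. Igf1, insulin-like growth factor 1, fell from 90.1, 105 and 55.6 CPM to 3.63 and 4.92 CPM (-4.27, standard error 0.35, adjusted p = 9.06e-05). Spp1, osteopontin, had 269, 416 and 147 CPM at P5 and 34.5 and 37.0 CPM at 9 months, a fall of 2.93. Lpl, lipoprotein lipase, fell from 516, 390 and 428 CPM to 32.3 and 37.1 CPM, a fall of 3.65. Apoe, the lipid carrier of microglia and astrocytes, went from 6247, 4228 and 4130 CPM to 2169 and 2283 CPM (-1.10, adjusted p = 0.0221), and its adjusted p was 0.055 without P5 replicate 2, 0.108 without 9-month replicate 1 and 0.0667 without 9-month replicate 2. In the list of 39 disease-associated genes 17 rose and 12 fell, and in the 31 axon tract genes 9 rose (5 without 9-month replicate 2) and 10 fell. Cst7, a cysteine protease inhibitor, rose from 5.31, 8.18 and 5.81 CPM to 38.2 and 47.7 CPM. The actin-capping Capg rose from 22.7, 56.0 and 70.5 CPM to 484 and 476 CPM. Ank, a pyrophosphate transporter, fell from 47.2, 62.1 and 37.6 CPM to 4.42 and 4.15 CPM. The lectin receptor Clec7a rose from 35.5, 101 and 96.8 CPM to 166 and 250 CPM (1.44, adjusted p = 0.0202), a call lost without 9-month replicate 2 (adjusted p = 0.103) and with scaling to the homeostatic list (adjusted p = 0.215). Under that scaling the medians of the disease-associated and axon tract lists changed sign, from 0.56 to -0.07 and from 0.11 to -0.50.

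In CD11c+ cells Igf1 went from 390 and 347 CPM to 23.8 and 26.7 CPM and Lpl from 562 and 523 CPM to 43.7 and 51.0 CPM. The interaction did not pass for either gene, at -0.43 for Igf1 (standard error 0.38, adjusted p = 0.461) and -0.16 for Lpl (standard error 0.27, adjusted p = 0.716). Spp1 fell further in CD11c+ cells, from 1761 and 907 CPM to 35.1 and 37.4 CPM (interaction 2.24, adjusted p = 0.0218). At 9 months the Spp1 levels of both subsets lay within 34.5 to 37.4 CPM. In the axon tract list 12 of 31 genes had a more positive age difference in CD11c- than in CD11c+ cells (7 without either CD11c+ 9-month library) and none a more negative one (1 without CD11c- P5 replicate 3).

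Genes of the fetal and imprinted growth programme fell. Of 28 listed 21 could be tested, and 12 fell, 9 did not pass and none rose, with a median of -2.59. With GC and length offsets 9 of the 21 fell and none rose, with a median of -2.18. Without P5 replicate 2, 9 of 20 fell. The median length of the list was 5723 bases, against 3553 bases for all genes tested. Peg10, a paternally expressed gene derived from a retrotransposon, is not in the list and was named for the size of its fall. It went from 42.0, 38.8 and 29.5 CPM to 0.233 and 0.767 CPM. Igf2bp3, an RNA-binding protein of fetal tissue, had 32.1, 42.2 and 38.6 CPM at P5 and 0 and 0.639 CPM at 9 months, a fitted difference of -7.01 whose 9-month counts all come from replicate 2. The SRY-related factor Sox4 fell from 89.3, 62.0 and 71.8 CPM to 6.33 and 4.60 CPM. Marcks, a substrate of protein kinase C that remodels actin, fell from 1916, 1357 and 1416 CPM to 110 and 132 CPM. Marcks was named from another list, of pre-microglia genes, in which 12 of 22 rose and 8 fell, with a median of 0.80. Igf2bp1 lay near the detection limit at 0.443, 1.22 and 2.47 CPM and then 0.140 and 0.128 CPM. Its call (adjusted p = 0.0325) was lost without either 9-month library, at adjusted p = 0.102 without replicate 1 and 0.0774 without replicate 2. Peg10, Igf2bp3 and Sox4 did not pass the interaction (adjusted p = 0.179, 0.125 and 0.681).

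Neuronal transcripts were low and fell as well. The 18 tested neuron genes, of 27 listed, included 12 that fell and none that rose, and the list took 0.0201%, 0.0109% and 0.0150% of the P5 counts and 0.00163% and 0.000909% of the 9-month counts. With GC and length offsets 9 of the 18 neuron genes fell and none rose. Their median length was 7178 bases. The non-coding RNA Meg3 had 86.1, 36.5 and 53.5 CPM at P5 and 0.559 and 0.0639 CPM at 9 months. The microtubule-associated Map1b went from 27.1, 34.2 and 81.4 CPM to 0.0931 and 0.511 CPM. Gap43, a protein of growing axons, had 134 counts at P5 and 1 at 9 months. For Map1b the CD11c+ cells had 7.34 and 3.33 CPM at P5 and 2.82 and 2.02 CPM at 9 months (interaction -6.26, adjusted p = 0.00227). In the list of red cell and platelet genes 3 of 10 tested rose and 3 fell (5 without P5 replicate 1 and 6 without P5 replicate 2). Over all genes tested 26.4% rose and 26.7% fell. Haemoglobin gene Hbb-bs varied from 244 to 2535 CPM among the P5 libraries and was 126 and 146 CPM at 9 months. Its call (adjusted p = 0.0282) was lost without 9-month replicate 1 (0.12) or replicate 2 (0.084), and its difference went from -2.98 to -1.40 without P5 replicate 3.

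Most genes of the G2 and M phases rose in CD11c- cells and fell in CD11c+ cells. Of 44 genes of the G2 and M phases 31 rose and 2 fell between P5 and 9 months in CD11c- cells, with a median of 0.95. In CD11c+ cells 42 of the 44 fell, where 32.7% of all genes tested fell, and the median was -2.05. The interaction was more positive in CD11c- cells for all 44, and for 24 with CD11c+ P5 replicate 2 included. Cdc20, an activator of the anaphase-promoting complex, rose from 18.5, 15.8 and 13.2 CPM to 94.3 and 82.4 CPM (2.5, standard error 0.20, adjusted p = 9.13e-05). In CD11c+ cells it had 18.7 and 15.3 CPM at P5 and 11.2 and 10.6 CPM at 9 months. Birc5, survivin, rose from 28.3, 26.5 and 21.5 CPM to 113 and 113 CPM, against 19.1 and 17.7 falling to 5.48 and 7.01 CPM in CD11c+ cells (interaction 3.71, adjusted p = 0.000194). The ubiquitin-conjugating enzyme gene Ube2c rose from 27.0, 23.9 and 22 CPM to 95 and 136 CPM, and the cyclin-dependent kinase subunit Cks2 from 27.9, 33.3 and 27.8 CPM to 168 and 288 CPM. The proliferation antigen Mki67 went the other way, from 203, 155 and 124 CPM to 75.5 and 83.2 CPM (-0.99, adjusted p = 0.00945). Its call was lost without 9-month replicate 1 (adjusted p = 0.0706) and with GC and length offsets (adjusted p = 0.282). Mki67 is 10061 bases long and Cdc20 1868 bases. In CD11c+ cells Mki67 fell from 208 and 165 CPM to 8.71 and 7.24 CPM (interaction 3.53, adjusted p = 0.000251).

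S-phase genes were divided, with 15 of 44 higher, 6 lower (3 without 9-month replicate 1) and a median of 0.16. Rrm2, a subunit of ribonucleotide reductase, rose from 38.4, 39.4 and 22.9 CPM to 166 and 173 CPM, and the replication factor Cdc45 from 10.2, 10.9 and 8.45 CPM to 33.8 and 42.0 CPM. In CD11c+ cells 34 of the 44 S-phase genes fell and 2 rose. The interaction was more positive in CD11c- cells for 27 of 44 and more negative for none, and with CD11c+ P5 replicate 2 included it was more positive for 9. Replication-dependent histone genes, whose transcripts mostly lack a poly(A) tail and belong to families of near-identical copies, rose in 20 of 23 tested, of 31 listed. Hist1h2ae went from 0.664, 1.22 and 0.792 CPM to 47.5 and 72.1 CPM and the linker histone Hist1h1e from 0.387, 1.29 and 1.23 CPM to 47.0 and 32.7 CPM. Slbp, which binds the histone stem-loop, rose from 58.9, 50.7 and 51.7 CPM to 189 and 220 CPM. Elane and Mpo, the genes of dividing neutrophil precursors, were 774 to 833 and 1390 to 1430 CPM in the 9-month CD11c- libraries and 1.03 to 3.96 and 1.53 to 7.48 CPM in the 9-month CD11c+ ones. Their part in the cell-cycle difference was not tested. With scaling to the homeostatic list 18 of the G2 and M genes rose and 5 fell, with a median of 0.36, and the S-phase median changed to -0.42.

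Promoters of the G2 and M genes are shown because their members moved together. CCAAT boxes, bound by NF-Y, and the cell-cycle homology region TTTGAA, bound by the DREAM and MuvB complexes, are known elements of such promoters. In the 250 bases before the start, CCAAT on either strand was found in 27 of the 35 G2 and M promoters that the RefSeq table holds for the 44 genes (77.1%), in 20 of 33 S-phase promoters (60.6%) and in 34.5% of 27025 promoters of all genes. TTTGAA on either strand was found in 10 of 35 (28.6%), 5 of 33 (15.2%) and 16.3%. The promoters of Cdc20 (GRCm38.p6, chr4:118437344-118437593, minus strand) and Ube2c (chr2:164769679-164769928, plus strand) are printed 5′ to 3′ up to the base before the start, with both motifs in capitals. In Ube2c a CCAAT overlaps its reverse complement, ATTGG.
Cdc20: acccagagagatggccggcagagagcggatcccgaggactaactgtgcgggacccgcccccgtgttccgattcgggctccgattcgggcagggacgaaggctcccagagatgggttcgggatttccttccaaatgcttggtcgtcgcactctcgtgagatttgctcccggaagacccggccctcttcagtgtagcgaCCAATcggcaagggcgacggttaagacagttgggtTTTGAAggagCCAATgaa
Ube2c: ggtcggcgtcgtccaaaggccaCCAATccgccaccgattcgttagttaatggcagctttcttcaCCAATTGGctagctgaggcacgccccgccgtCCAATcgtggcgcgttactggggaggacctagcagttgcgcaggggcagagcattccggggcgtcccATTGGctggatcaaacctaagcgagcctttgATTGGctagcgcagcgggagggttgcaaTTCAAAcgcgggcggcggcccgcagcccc
In Cdc20, a gene that rose in CD11c- cells, a TTTGAA lies between a pair of CCAAT boxes, with the nearer box ending 3 bases before the window's end. The promoter of Birc5, which also rose, held neither motif, and that of Cks2 held CCAAT but no TTTGAA. A match describes the letters and not a bound site.

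**Figure D4:**
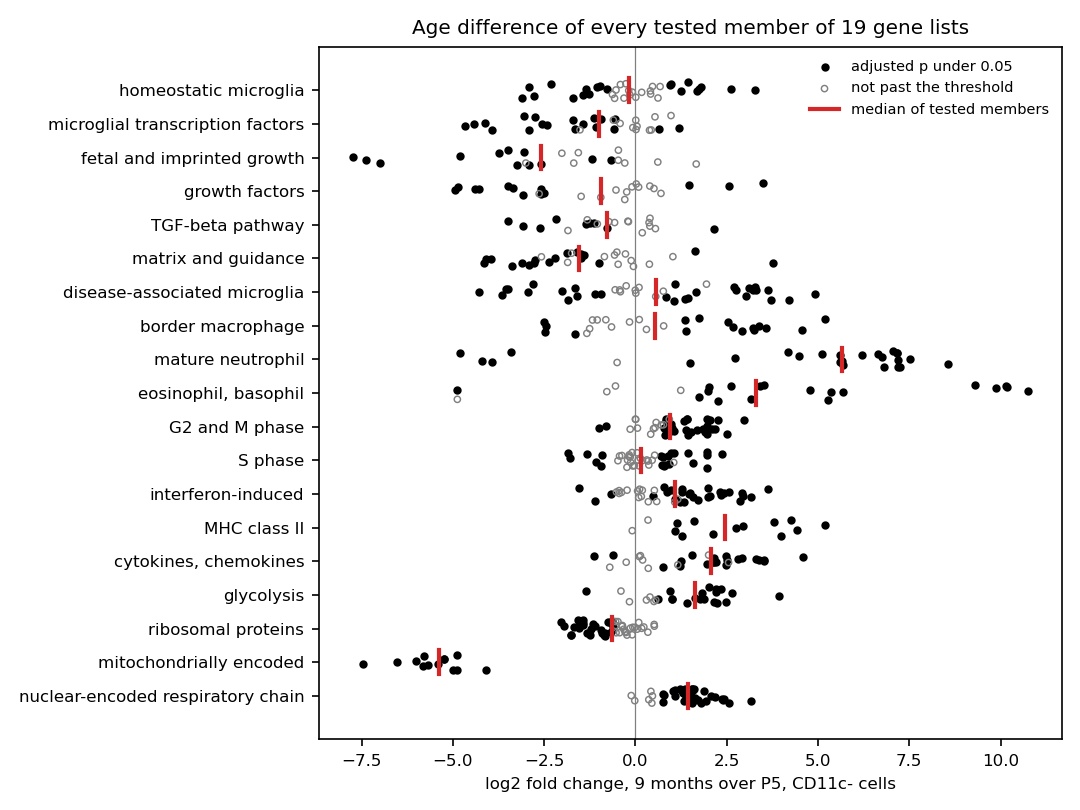
Log2 fold change of 9 months over P5 in CD11c- cells for every tested member of 19 gene lists, filled where the adjusted p is under 0.05, with a red bar at each list's median. Mature neutrophil (median 5.67) and MHC class II genes (2.45) lie to the right, mitochondrially encoded (-5.39) and fetal growth genes (-2.59) to the left, and homeostatic genes (-0.17) spread to both sides.

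Antigen presentation rose. Of the 14 MHC class II genes tested 12 rose and none fell, with a median of 2.45. The class II chain H2-Ab1 went from 6.47, 31.5 and 34.7 CPM to 808 and 934 CPM (5.19, adjusted p = 0.000366), and Cd74, the invariant chain, from 35.5, 143 and 120 CPM to 1379 and 1703 CPM. H2-DMa and H2-DMb1, which load peptide on class II, rose from 26.7, 32.7 and 36.1 CPM to 219 and 264 CPM and from 19.2, 17.5 and 20.5 CPM to 131 and 124 CPM. P5 replicate 1 was lowest in H2-Ab1 and Cd74. CD11c+ cells gave a median of 2.42, with all 14 higher, and the interaction did not pass for H2-Ab1, Cd74, H2-DMa or H2-DMb1 (adjusted p = 0.185, 0.3, 0.32 and 0.463). Of 23 MHC class I pathway genes 14 rose and 3 fell. The class I chain H2-D1 rose from 355, 641 and 788 CPM to 4118 and 5359 CPM, the non-classical H2-T23 from 60.4, 64.7 and 87.1 CPM to 361 and 449 CPM, and the immunoproteasome subunit Psmb9 from 27.4, 27.6 and 30.6 CPM to 134 and 135 CPM. H2-Q4 fell from 80.9, 112 and 118 CPM to 13.2 and 9.33 CPM and H2-Q1 rose from 0.111, 0.215 and 0.0881 CPM to 36.9 and 22 CPM. The H2-Q genes are near-identical copies whose reads the counting could split.

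Interferon-induced, inflammatory and Toll-like receptor genes followed. Of 43 interferon-induced genes 25 rose and 3 fell, with a median of 1.09. Usp18, which restrains the interferon receptor, rose from 4.48, 3.59 and 2.47 CPM to 22 and 28.7 CPM, Ifit3 from 9.02, 7.53 and 7.13 CPM to 30.3 and 31.8 CPM and the nucleotide kinase Cmpk2 from 4.48, 8.75 and 10.3 CPM to 76.6 and 60.3 CPM. In CD11c+ cells Cmpk2 had 11.2 and 7.92 CPM at P5 and 11.4 and 9.98 CPM at 9 months (interaction 2.97, adjusted p = 0.00227). Of 30 cytokine and chemokine genes 19 rose and 2 fell. Il1b went from 12.6, 83.5 and 76.6 CPM to 543 and 642 CPM (3.38, adjusted p = 0.00328), against 97.1 and 83.6 CPM in the 9-month CD11c+ libraries. Its interaction did not pass (2.47, adjusted p = 0.0592). Il1a went from 54.2, 66.6 and 62.5 CPM to 288 and 384 CPM and rose further in CD11c+ cells, from 13.3 and 41.8 CPM to 727 and 871 CPM (interaction -2.40, adjusted p = 0.0145). Tnf rose from 15.9, 58.6 and 37.3 CPM to 149 and 136 CPM (1.96, adjusted p = 0.00688), a call lost with scaling to the homeostatic list (adjusted p = 0.058). The chemokine Ccl12 rose from 39.3, 30.0 and 46.2 CPM to 340 and 537 CPM and Cxcl16 from 15.8, 12.6 and 11.8 CPM to 72.8 and 78.0 CPM.

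Receptors and adaptors of pathogen sensing rose in 13 of 23 and fell in 4 (8 rises without P5 replicate 3 or without 9-month replicate 1). Cd14, the co-receptor for lipopolysaccharide, rose from 97.0, 177 and 145 CPM to 864 and 788 CPM and the adaptor Myd88 from 64.1, 71.3 and 75.6 CPM to 226 and 205 CPM. Cd180, a Toll-like homologue, fell from 218, 192 and 143 CPM to 27.6 and 25.6 CPM. Complement and phagocytic receptor genes gave 12 rises and 7 falls in 32 (3 falls without 9-month replicate 1). C5ar1, the receptor for the C5a fragment and abundant on neutrophils, rose from 40.7, 69.6 and 60.4 CPM to 898 and 955 CPM (interaction 2.40, adjusted p = 0.00108). Tyrobp, the signalling adaptor of Trem2 and of many myeloid receptors, rose from 400, 527 and 445 CPM to 2566 and 4779 CPM. The chemokine receptor Cxcr2, found on mature neutrophils, rose from 19.5, 31.4 and 24.0 CPM to 415 and 472 CPM, and stood at 7.68 and 4.45 CPM in the 9-month CD11c+ cells. Among 15 purinergic genes 4 rose (2 without P5 replicate 2) and 3 fell. Over all genes tested 26.4% rose and 26.7% fell, so the purinergic counts were near or below those shares. Nt5e, the ectoenzyme that makes adenosine, rose from 0.553, 4.45 and 4.23 CPM to 51.3 and 42.9 CPM, P2ry6, the receptor for UDP, fell from 262, 230 and 187 CPM to 89.4 and 94.7 CPM, and the adenosine receptor Adora3 fell from 73.2, 46.7 and 40.0 CPM to 16 and 19.4 CPM.

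Stress and immediate-early genes rose in 20 of 34 and fell in 5 (9 without P5 replicate 1), with a median of 1.36. Hspa1b and Hspa1a, the inducible heat-shock protein 70 genes, were among the 3 largest rises of genes that are outside the lists of other cells and that the CD11c+ cells share. Hspa1b went from 0.609, 0.430 and 0.969 CPM to 563 and 461 CPM (9.63, adjusted p = 2.05e-05) and Hspa1a from 0.885, 5.38 and 4.93 CPM to 710 and 586 CPM (7.49, adjusted p = 0.00011). CD11c+ cells had 1501 and 1137 CPM of Hspa1b and 1538 and 1350 CPM of Hspa1a at 9 months, and the interaction did not pass for either (adjusted p = 0.978 and 0.572). The co-chaperone Dnajb1 rose from 70.3, 71.3 and 69.6 CPM to 435 and 437 CPM and the immediate-early factor Egr2 from 15.7, 12.7 and 12.7 CPM to 55.5 and 63.0 CPM. Both Hspa1 genes are near-identical copies and may share reads. Their promoters are shown because both genes rose. These bases lie before the start and do not bear on shared reads. Over the 250 bases before the start they differ at 3 bases, and each holds 1 palindromic pair of heat-shock factor half-sites, GAANNTTC, in capitals. Hspa1a lies at chr17:34972157-34972406 and Hspa1b at chr17:34959239-34959488 (GRCm38.p6, both on the minus strand).
Hspa1a: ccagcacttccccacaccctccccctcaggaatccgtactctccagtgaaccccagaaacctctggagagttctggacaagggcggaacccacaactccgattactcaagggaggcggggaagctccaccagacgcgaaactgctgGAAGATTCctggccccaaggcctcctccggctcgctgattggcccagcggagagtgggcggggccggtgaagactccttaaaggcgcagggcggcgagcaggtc
Hspa1b: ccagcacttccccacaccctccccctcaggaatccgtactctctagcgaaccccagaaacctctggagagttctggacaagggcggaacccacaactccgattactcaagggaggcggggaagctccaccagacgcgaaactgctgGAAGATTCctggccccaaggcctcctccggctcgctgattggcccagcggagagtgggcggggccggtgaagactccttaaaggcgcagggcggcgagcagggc
The motif reads the same on both strands and was chosen after matches of a longer form had been looked for. It was found in 5 of the 28 stress and immediate-early promoters in the table (17.9%), this pair included, and in 6.78% of all promoters. The same motif was in 4 of 33 S-phase promoters (12.1%) and in 2 of 35 G2 and M promoters (5.71%). The promoter of Dnajb1 held none. How the cells were dissociated at each age is not given in the sources used here.

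Energy metabolism split between genomes. All 13 mitochondrially encoded genes tested fell, with a median of -5.39, and they took 7.15%, 20.6% and 28.0% of the P5 counts and 0.223% and 0.387% of the 9-month counts. Among the P5 libraries replicate 1 was lowest. The complex I subunit mt-Nd5 had 4977, 19960 and 24490 CPM at P5 and 182 and 324 CPM at 9 months, mt-Nd4 had 4061, 13910 and 18610 CPM and then 158 and 313 CPM, and mt-Nd4l had 68.9, 275 and 298 CPM and then 1.16 and 1.21 CPM. mt-Nd6, encoded on the other strand, fell from 1694, 5672 and 9066 CPM to 32.4 and 85.7 CPM. In the CD11c+ libraries the shares were 2.38% and 2.79% at P5 and 0.391% and 0.418% at 9 months. The interaction was more negative in CD11c- cells for 6 of the 13 genes. It was so for none without CD11c+ P5 replicate 1 or CD11c- 9-month replicate 1, for 2 or 3 without CD11c+ P5 replicate 3, CD11c- P5 replicate 2 or 3, or CD11c+ 9-month replicate 2, for 12 without CD11c- P5 replicate 1 and 11 without CD11c- 9-month replicate 2, and for none with scaling to the homeostatic list or with CD11c+ P5 replicate 2 included. Nuclear-encoded subunits of the respiratory chain went the other way, with 34 of 40 higher, none lower and a median of 1.43. Ndufa1 of complex I rose from 18.2, 24.2 and 23.9 CPM to 141 and 248 CPM and Sdhb of complex II from 50.8, 55.9 and 55.6 CPM to 169 and 203 CPM. Leaving mitochondrially encoded genes out before scaling gave 4297 genes higher and 4434 lower, near the counts with them.

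Glycolytic genes rose in 18 of 25 and fell in 1. Ldha, lactate dehydrogenase, went from 210, 246 and 234 CPM to 976 and 1113 CPM and Pgam1, phosphoglycerate mutase, from 31.3, 47.0 and 38.6 CPM to 202 and 186 CPM. In CD11c+ cells 7 of the 25 rose and 7 fell, and the interaction was more positive in CD11c- cells for 15 and more negative for 2 (none without CD11c+ P5 replicate 1 or 3 or without CD11c- 9-month replicate 1). Ldha in CD11c+ cells had 276 and 251 CPM at P5 and 361 and 375 CPM at 9 months (interaction 1.70, adjusted p = 0.00159). Ribosomal protein genes fell in 27 of 50 (17 without 9-month replicate 1) and rose in none. Rplp1, a protein of the ribosomal stalk, fell from 593, 615 and 730 CPM to 131 and 177 CPM and Rpl22 from 196, 191 and 232 CPM to 59.0 and 60.3 CPM. The CD11c+ cells gave 46 falls in the same 50 genes.

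Lipid and lysosome genes moved in both directions, as did all genes tested, of which 26.4% rose and 26.7% fell. Of 27 cholesterol synthesis genes 10 rose and 4 fell (2 without P5 replicate 2). Msmo1 and Sc5d, late enzymes of the pathway, rose from 22.4, 21.6 and 18.7 CPM to 101 and 110 CPM and from 16, 16.1 and 12.6 CPM to 65.3 and 69.5 CPM. The desaturase Scd2 fell from 405, 291 and 207 CPM to 39.2 and 29.5 CPM. Of 27 genes of lipid uptake, storage and efflux 7 rose and 8 fell. Dgat1, which makes triglyceride, rose from 39.3, 49.1 and 50 CPM to 368 and 334 CPM and stayed at 26.6 to 40.5 CPM in the CD11c+ libraries (interaction 2.46, adjusted p = 0.000343). Lrp1, an endocytic receptor of apolipoprotein E whose exons span 17717 bases, fell from 1430, 1365 and 1153 CPM to 146 and 181 CPM. Lysosomal genes gave 9 rises and 9 falls in 39, with a median of 0.01 (5 falls without P5 replicate 2 and 4 without 9-month replicate 1). The cathepsin genes Ctsh and Ctsc rose from 155, 161 and 164 CPM to 876 and 988 CPM and from 223, 272 and 243 CPM to 727 and 815 CPM. Lamp1, the abundant lysosomal membrane protein, fell from 1202, 1236 and 954 CPM to 60.3 and 162 CPM. It fell as well in CD11c+ cells, from 1683 and 1500 CPM to 91.9 and 87.2 CPM.

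A last set holds the largest differences among genes that are in no list of other cells and that CD11c+ cells express at no less than 50% of the CD11c- level at the age of the higher level. Upk1b, a tetraspanin of the uroplakin family, rose from 0.609, 1 and 2.02 CPM to 99.3 and 120 CPM, and further in CD11c+ cells, to 291 and 316 CPM (interaction -3.42, adjusted p = 0.0101). Thrsp, a regulator of lipogenesis, rose from 0.941, 0.287 and 0.704 CPM to 29.1 and 30.9 CPM. The large transmembrane protein gene Csmd3 rose from 0.664, 2.44 and 2.02 CPM to 52.3 and 79.4 CPM. Tnfsf13b, the B-cell survival factor BAFF, rose from 0.941, 3.01 and 3.17 CPM to 82.3 and 73.6 CPM, against 69.0 and 63.0 CPM in 9-month CD11c+ cells. Among the falls, the forkhead factor Foxo4 had 29.0, 21.3 and 24.5 CPM at P5 and 0 and 0.320 CPM at 9 months, all from replicate 2. Ano8, of the anoctamin family, fell from 52.8, 22.2 and 21.8 CPM to 0.466 and 0.320 CPM, Tatdn2 from 33.5, 42.1 and 40.2 CPM to 0.140 and 1.34 CPM, and 2700081O15Rik from 65.6, 32.7 and 34.4 CPM to 0.466 and 0.256 CPM. Lpar2, a receptor for lysophosphatidic acid, fell from 20.4, 31.2 and 23.2 CPM to 0.0466 and 0.703 CPM, and the actin-binding Nexn from 21, 17.5 and 18.6 CPM to 0.279 and 0.384 CPM. Foxo4 in CD11c+ cells had 33.1 and 28.9 CPM at P5 and 0.245 and 0.0449 CPM at 9 months. Of the 6 genes, 2700081O15Rik alone passed the interaction (-2.34, adjusted p = 0.0244). The 9-month libraries of both subsets share the low-input kit, and its part in these falls was not tested.

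**Figure D5:**
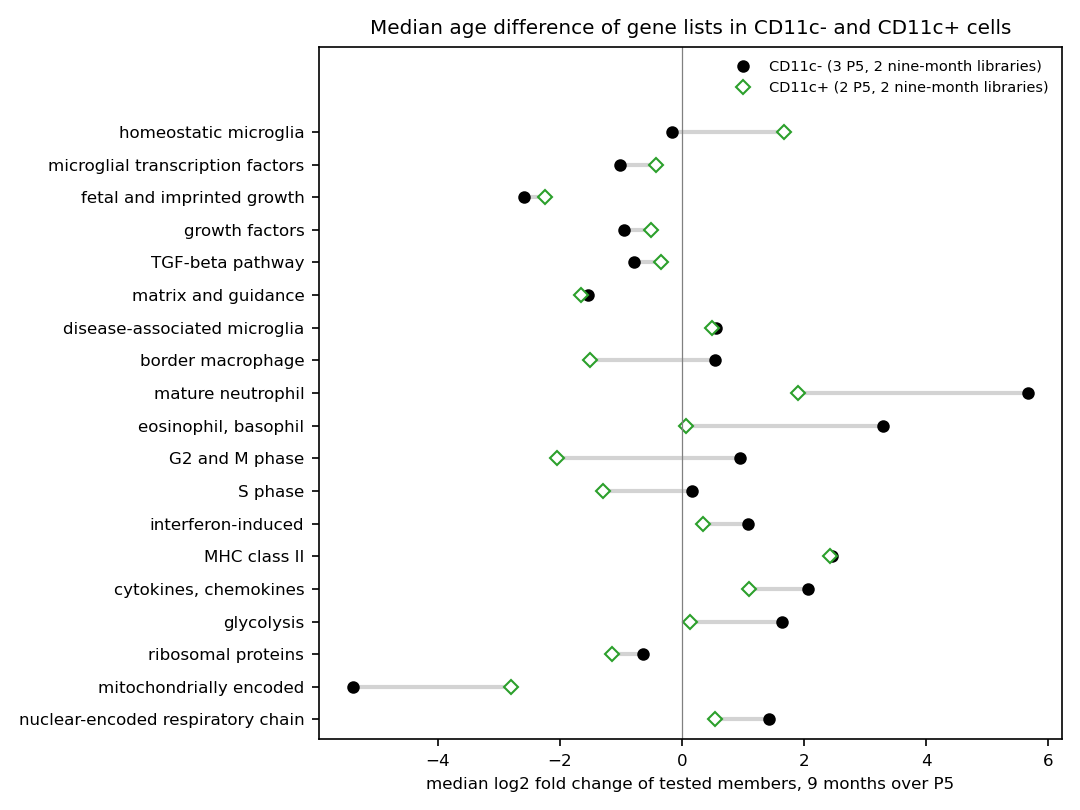
Median log2 fold change of 9 months over P5 of 19 gene lists, filled circles for CD11c- cells (3 and 2 libraries) and open diamonds for CD11c+ cells (2 and 2 libraries, P5 replicate 2 left out), joined by a grey line for each list. The medians lie close for MHC class II (2.45 and 2.42) and on opposite sides of 0 for G2 and M genes (0.95 and -2.05) and border macrophage genes (0.54 and -1.51).

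Across the 14779 genes tested in both subsets, 4000 rose in CD11c- cells and 2550 of them also rose in CD11c+ cells, which is 63.8% of the CD11c- rises and 54.5% of the CD11c+ rises. A fall in CD11c- cells was seen in 3922 genes and 2997 of them also fell in CD11c+ cells, 76.4% and 60.8% of each set. Opposite calls were made for 348 genes that rose and 114 that fell in CD11c- cells. The libraries of the subsets are separate but share the kit at each age. The interaction was more positive in CD11c- cells for 1889 genes and more negative for 1607 of 18348. It rested on the library choice. With CD11c+ P5 replicate 2 included it called 305 and 59 genes, with 1 axon tract and 1 glycolytic gene and 4 monocyte genes among the more positive, and leaving out single libraries gave 1089 to 2164 and 541 to 2694. The count of more positive genes fell to 1089 without CD11c+ P5 replicate 1, 1123 without its replicate 3 and 1185 without CD11c+ 9-month replicate 1. The count of more negative genes was 541, 596 and 744 without the same libraries, 884 without CD11c+ 9-month replicate 2, 828 without CD11c- P5 replicate 2, 1066 without CD11c- 9-month replicate 1 and 2694 without CD11c- 9-month replicate 2. DESeq2 size factors gave 2203 and 1373, and scaling to the homeostatic list gave 8620 and 183.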

How the data were processed

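RNA was measured in sorted brain cells that the labels call microglia. The authors trimmed reads with Trimmomatic 0.36 and named STAR 2.5.2b and Subread 1.5.2, per the submitters' processing notes. Genome build, strand setting and treatment of multiply mapped reads are not given in the sources used here. The deposited files hold whole-number counts per Ensembl gene, not normalized. Symbols came from GENCODE M21, and promoters from RefSeq on GRCm38.p6.

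Ages were compared in the 5 CD11c- libraries with edgeR 4.0.16 (quasi-likelihood F-test, TMM scaling, filterByExpr, Benjamini-Hochberg threshold 0.05) in R 4.3.3, and the interaction of age and subset in 9 libraries, without CD11c+ P5 replicate 2. Printed levels are CPM on the TMM factors of the 9-library fit. DESeq2 1.42.0 and limma 3.58.1 (voom) were alternatives. Shares of counts have no test, since 3 against 2 libraries cannot give an exact permutation p below 0.1. On simulated counts for the comparison of ages, the test called 68.7% of the genes given a 4-fold change and 7% of those given a 2-fold one, among 15580 genes, with 5 false calls. For the interaction these were 34% and 0% among 17203 genes, with 3 false calls. The simulation changed only 99 or 100 genes at each size, whereas 53.2% of genes were called between the ages in the data. Its shares are therefore not the sensitivity of the test in these data.

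Named genes are 19 fixed ones (1 more is not reported here), the 8 largest differences each way among called protein-coding genes with log2 CPM of at least 3 and groups that do not overlap, the same without lists of other cells and with CD11c+ expression, and up to 4 members of each of 41 lists with the smallest p. Of 1153 list entries 1149 matched a symbol. The comparison and the lists were chosen with earlier results of these data known.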

Additional observations from a re-analysis of the deposited data

Results flagged for a closer look

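The age difference was tested for being unequal in CD11c- and CD11c+ cells, and the interaction called 1889 genes as more positive and 1607 as more negative in CD11c- cells. Each value below is that interaction on the log2 scale, the CD11c- difference minus the CD11c+ one, for a named gene past the threshold, and none of the patterns has a tested cause.

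Microglial genes were more negative in CD11c- cells. The interaction was -3.57 for Tmem119, -2.16 for P2ry12, -1.97 for Cx3cr1, -2.17 for Sall1, -2.09 for Sall3 and -1.58 for Csf1r. It was -1.64 for Trem2, -2.55 for Crybb1 and -1.90 for Selplg. Among regulators and surface genes it was -1.65 for Elk3, -1.77 for Marcks, -1.18 for Ski, -1.86 for Adora3, -1.77 for Itgb5, -1.34 for Plxnb2 and -1.55 for Lrp1. Upk1b and Csmd3, both higher at 9 months in each subset, had -3.42 and -2.79. The values were -2.40 for Il1a, -1.01 for Cxcl16 and -0.86 for Dnajb1, which rose in both subsets.

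Some named transcripts of neurons and mitochondria were more negative as well, at -6.26 for Map1b, -4.94 for Meg3, -5.66 for Gap43 and -2.07 for Elavl4. Over the neuron list 4 of 23 genes were more negative and 1 more positive, beside 8.76% and 10.3% of all genes. With CD11c+ P5 replicate 2 included, none of the list passed in either direction. The mitochondrial genes mt-Nd6, mt-Nd5 and mt-Nd4 had -3.12, -3.34 and -3.01, and the gene 2700081O15Rik had -2.34.

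Granulocyte and monocyte lists differed in how many genes were more positive in CD11c- cells, beside 10.3% of all genes. These were 21 of 26 mature neutrophil genes, 5 of 13 neutrophil precursor genes and 11 of 24 monocyte genes. Of 22 eosinophil and basophil genes 6 were more positive and 1 more negative. With CD11c+ P5 replicate 2 included, 9, 3, 4 and 1 were more positive in the same order. The interaction was 3.10 for Chil3, 3.79 for Serpinb1a, 3.92 for Cebpe, 3.65 for Mmp8, 4.75 for Cxcr2, 6.24 for Ly6c1 and 2.78 for Cd177. For Epx it was 8.27 (standard error 2.58, adjusted p = 0.048). That value rests on CD11c+ levels of 0.109 and 0 CPM at P5 and 0.204 and 0 CPM at 9 months. The eosinophil genes Prg2, Prg3, Ear1 and Ear6 did not pass. Other myeloid genes had 4.86 (F13a1), 2.96 (Ms4a6c), 3.07 (Ms4a7), 2.40 (C5ar1), 1.38 (Tyrobp), 2.44 (Capg), 1.74 (Clec7a) and 2.24 (Spp1). Nt5e had 4.76, Enpp2 3.61, Acvrl1 1.06 and Dgat1 2.46.

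Cell-cycle genes were more positive too, at 3.12 for Cdc20, 3.71 for Birc5, 1.74 for Cks2, 3.92 for Ube2c, 3.76 for Rrm2, 2.75 for Cdc45 and 3.53 for Mki67. The histone genes Hist1h2ae and Hist1h1e had 3.83 and 1.90. In metabolism the values were 1.70 for Ldha, 2.14 for Pgam1 and 1.83 for Ndufa1, and among immune genes 0.86 for Ifit3, 2.97 for Cmpk2 and 0.83 for Psmb9.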

How the results depend on the processing

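Counts of genes past the threshold stayed within 1.5 times of 4305 higher and 4353 lower in CD11c- cells under DESeq2 size factors, upper-quartile scaling, the DESeq2 test, limma-voom, both filters, omission of mitochondrial or of granulocyte and monocyte genes, and GC and length offsets (chosen after seeing the data). Scaling to the homeostatic list gave 2236 higher, and the fit of all 10 libraries gave 2257 and 2180; the cause was not tested. Leaving out each library gave 3433 to 4063 higher and 3204 to 4934 lower. The replicate block, with numbers that only 2 pairs share and whose deviations correlated at -0.021 and -0.007, gave 3159 and 3085. For the interaction (1889 more positive, 1607 more negative) the block gave 1813 and 1260, all 10 libraries 305 and 59, scaling to the homeostatic list 8620 and 183, and leaving out each library 1089 to 2164 and 541 to 2694. Of 131 named genes 127 were called, and 10 lost the call in the fit of all 10 libraries, 2 with homeostatic scaling, and 5 (Apoe, Clec7a, Mki67, Igf2bp1 and Hbb-bs) in at least 1 other setting, of which 1 with the block. P2ry12 turned to -0.13 with homeostatic scaling, and Cx3cr1 to 0.17 with the block, 0.02 with GC and length offsets, and leaving out each library gave -0.36 to 0.06 for it, none past the threshold. P2ry12 passed without P5 replicate 1 and Trem2 with homeostatic scaling. Counts of 2 genes or fewer given for a list's rises or falls in CD11c- cells moved by at most 1 when a P5 library was left out. The exception was the rises of the oligodendrocyte list (4 without P5 replicate 3). Depth limited genes near 0 at 9 months, where fitted differences have no firm size. Kit and age cannot be told apart.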

Other observations

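Some list genes of other cells whose levels are not given above also differed. Enpp2 has the largest rise of the oligodendrocyte list, in which 2 of 11 tested genes rose (4 without P5 replicate 3), 2 fell and 7 did not pass. Over all genes tested 26.4% rose and 26.7% fell. Cebpe and Elavl4 belong with the granulocyte and neuronal genes above. Enpp2, which encodes autotaxin, the enzyme that makes lysophosphatidic acid, rose in CD11c- cells from 3.82, 1 and 4.32 CPM at P5 to 94.9 and 126 CPM at 9 months, a log2 fold change of 5.21. In CD11c+ cells it had 12.1 and 11.4 CPM at P5 and 35.1 and 34.5 CPM at 9 months. Cebpe, a transcription factor of late granulocyte maturation, rose from 2.49, 7.39 and 5.81 CPM to 82.3 and 61.8 CPM, while the CD11c+ libraries ran from 0.629 to 1.15 CPM, P5 replicate 2 included. Elavl4, a neuronal RNA-binding protein, fell from 29.8, 21.5 and 25.7 CPM to 4.84 and 2.43 CPM. In these 3 genes the P5 and 9-month CD11c- libraries did not overlap.

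The dendritic cell list gave 8 rises and 3 falls among 21 tested genes, with 5 rises without 9-month replicate 2 and 5 falls without P5 replicate 2. Its share of counts was 0.152%, 0.101% and 0.0968% at P5 and 0.0835% and 0.0756% at 9 months. The T and NK cell list gave 3 rises (1 without P5 replicate 3) and 6 falls among 22. Over all genes tested 26.4% rose and 26.7% fell, and the falls of the T and NK and vessel lists lay near that share. The list of vessel genes gave 2 rises and 4 falls among 15, with 2 falls without 9-month replicate 1 and 6 without 9-month replicate 2.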
